A study of Mus musculus with 10 samples.

Results

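The autophagy and mitophagy genes described here are 44 genes that encode the machinery with which a cell encloses its own components in a double membrane and delivers them to the lysosome. They were chosen by symbol from the 26335 rows of the deposited table, and all 44 were found. Autophagy begins with the ULK1 kinase complex, which activates a lipid kinase complex built around VPS34 and Beclin 1. Lipid transfer proteins then feed membrane to the growing phagophore, and ubiquitin-like conjugation reactions attach the ATG8 proteins (the LC3 and GABARAP families) to it. Receptors such as p62 bind cargo on one side and ATG8 proteins on the other. Mitophagy, the removal of mitochondria by this route, relies on the kinase PINK1 with the ubiquitin ligase parkin, or on receptors embedded in the outer mitochondrial membrane. These are RNA levels, which are not a measure of autophagic activity.

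The cells were mSCLC-2405, a mouse small cell lung cancer line that the paper derives from a primary tumor, grown in RPMI medium with serum. There were 5 control libraries and 5 libraries from cells given 250 μM stiripentol, an antiepileptic drug, for 48 h, and the label for the treatment names DMSO as the alternative to stiripentol. The comparison asks how the drug changes RNA levels in a single cell line, and each library is 1 of 5 replicates of its group. The paper counts replicates as independent samples, for which it names mice, but these are libraries of 1 cell line and the labels do not say whether they came from separate cultures, so that p-values measure the spread between these libraries. The methods describe 3′ mRNA libraries and the labels total RNA libraries, and for this reason the levels of member genes were not compared with each other.

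The recovered totals were 22375625 to 65299372 reads in controls, control 5 being the shallowest, and 55015760 to 60670901 in stiripentol libraries. Each group split into 2 clusters of libraries across all 12306 genes tested. Controls 4 and 5 and stiripentol libraries 1 and 2 formed clusters of 2, and controls 1 to 3 and stiripentol libraries 3 to 5 formed clusters of 3. Pearson correlations were 0.983 to 0.998 within a cluster and 0.920 to 0.939 between the clusters of a group. The clusters were matched between groups by their size alone. Correlations between the groups were 0.88 to 0.94 for libraries of matched clusters and 0.84 to 0.94 for the others. These ranges overlap and do not settle the match, and the other match was not fitted. The table was also normalized in 2 sets, seen in the value given to a gene without reads, -4.82 in controls 1 to 3 and -4.74 in the other 7 libraries. The comparison within the clusters of 3 therefore runs across both sets, and that within the clusters of 2 lies in 1 set. Of the neuroendocrine markers of this tumor type, 2 of the 8 in the table (Ncam1 and Uchl1) passed the filter on low values. The 8 summed to 93.6 to 120 CPM (reads scaled to the size of the library) in controls and 127 to 157 in stiripentol libraries. The 5 epithelial markers summed to 2278 to 2598 CPM in controls and 1544 to 2145 in stiripentol libraries, with Epcam at 0 to 1 reads per library. The 6 fibroblast markers summed to 167 to 392 in controls and 105 to 127 with stiripentol, and the 4 endothelial markers stayed at 0.283 to 1.20 in all libraries. The 4 blood cell markers in the table summed to 6.42 to 18.6 in controls and 58.9 to 104 with stiripentol, mostly from Cd68, a lysosomal membrane protein of macrophages, while the pan-leukocyte marker Ptprc had 0 to 3 reads per library. The part of these markers and of the clusters in the changes below was not tested.

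With stiripentol, 10 of the 43 members tested rose and 2 fell. The 10 were Atg13, Uvrag, Atg3, Atg5, Atg7, Atg12, Gabarap, Sqstm1, Optn and Tax1bp1, and the 2 were Map1lc3a and Fundc1. The share that rose, 23.3%, stood beside 13.6% of all 12306 genes, and the share that fell, 4.65%, beside 14.1%. In either direction 27.9% of the members and 27.7% of all genes passed, so that the members changed about as often as other genes. A gene was called where limma gave a Benjamini-Hochberg adjusted p under 0.05 over all genes tested, and the test required a mean log2 CPM above 0. Park2, which encodes parkin, did not reach that level and was not tested.

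The median change of the 43 members was 0.04 on the log2 scale, beside -0.06 for all genes. Quantile normalization raised the median of all genes by 0.10, to 0.05, and that of the members to 0.10. All 10 rises passed the test under that scaling too, where 16.9% of all genes were called higher and 14.6% lower. With median-of-ratios size factors (14.5% and 14.6%) 9 of the 10 passed, and neither fall passed under either scaling. The 1 member called lower under both was Pik3r4, at 5.72, 5.71, 5.58, 5.57 and 5.61 log2 CPM in controls and 4.90, 5.15, 5.41, 5.40 and 5.49 with stiripentol. Every stiripentol library exceeded every control in 8 members, 18.6% of those tested beside 13% of all genes, and every stiripentol library was below every control in 3 members, 6.98% beside 14.3%. In the 7 libraries of 1 normalization set, controls 4 and 5 against all 5 stiripentol libraries, 6 members were called higher and 5 lower, beside 10.1% and 9.87% of all genes. Of the 12 called members, Atg3, Atg7, Atg12, Sqstm1, Optn and Fundc1 passed there too. Bcl2l13 was also called higher there, and Gabarapl2, Calcoco1, Pink1 and Bnip3l were called lower. The changes there were 0.30 for Atg13, 0.30 for Uvrag, 0.24 for Atg5, 0.28 for Gabarap, 0.25 for Tax1bp1 and -0.27 for Map1lc3a, with adjusted p from 0.172 to 0.504. The rises of Sqstm1 and Optn were 0.59 and 0.82 there. With 1 mean per group and cluster, 2 means against 2, limma called none of the members and none of the 12306 genes. In that fit the unadjusted p was under 0.05 for 3 members (Atg12, Sqstm1 and Optn) and for 9.07% of all genes. The plot of changes by role shows all 43 members.

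**Figure D1:**
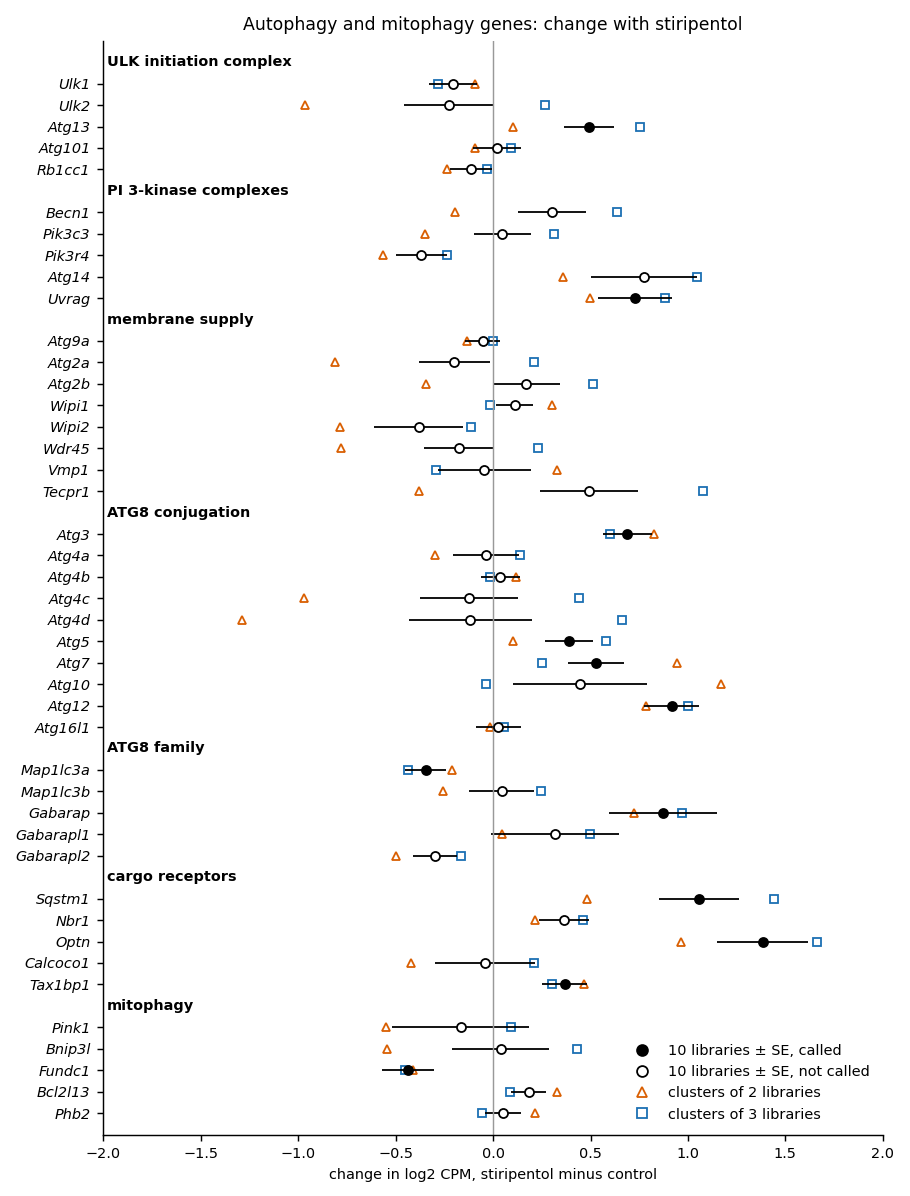
Change in log2 CPM (stiripentol minus control, x axis) of the 43 members tested, in 7 groups by role. Circles give the fit of 10 libraries with its standard error, filled where the adjusted p was under 0.05, and triangles and squares give the change within the clusters of 2 and of 3 libraries. The changes ran from -0.44 for Fundc1 to 1.38 for Optn, and the triangles and squares lie on opposite sides of 0 for 22 members.

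The ULK1 initiation complex receives nutrient and energy signals, and 1 of its 5 genes rose. Atg13, the adaptor that joins the kinase to its scaffold, was measured at 5.82, 5.88, 5.91, 6.13 and 6.25 log2 CPM in controls 1 to 5 and at 6.18, 6.41, 6.58, 6.65 and 6.63 in stiripentol libraries 1 to 5. Only stiripentol library 1 lay within the range of the controls. The change was 0.49 ± 0.13 (SE) with an adjusted p of 0.0187, and it was 0.10 within the clusters of 2 (adjusted p = 0.449) and 0.75 within the clusters of 3 (adjusted p = 3.72e-05). Ulk1, the kinase itself, stood at 6.44, 6.51, 6.58, 6.17 and 6.27 in controls and at 5.89, 6.37, 6.15, 6.24 and 6.28 with stiripentol. The groups overlapped, and the change of -0.21 ± 0.12 did not pass (adjusted p = 0.221). It was -0.09 within the clusters of 2 (adjusted p = 0.596) and -0.28 within the clusters of 3, where it passed (adjusted p = 0.00658). Ulk2, Atg101 and Rb1cc1 (the scaffold FIP200) had changes of -0.23 to 0.02, none past the test. The change of Ulk2 was -0.97 within the clusters of 2 and 0.27 within the clusters of 3, both past the test.

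The VPS34 complexes make the phosphatidylinositol 3-phosphate that marks the phagophore, and Uvrag rose among their 5 genes. Uvrag (GRCm38 chr7:98886742-99141167), the Beclin 1 partner of the endosomal complex, had 5.04, 4.95, 5.10, 5.75 and 5.75 log2 CPM in controls and 6.20, 6.29, 5.91, 5.93 and 5.90 with stiripentol. All 5 stiripentol libraries were above all controls, the controls of the cluster of 2 lying nearest to them. The change was 0.73 ± 0.19, a fold of 1.66 (adjusted p = 0.0171), with 0.50 and 0.88 within the clusters of 2 and of 3. Atg14, the partner that directs the same kinase to the phagophore, changed by 0.77 ± 0.27 and missed the threshold (adjusted p = 0.055), although it passed within each cluster at 0.36 and 1.05. Becn1, which encodes Beclin 1, had 6.63, 6.75, 6.71, 6.83 and 6.75 in controls and 6.58, 6.62, 7.33, 7.30 and 7.36 with stiripentol. The stiripentol libraries of the cluster of 3 were above every control and those of the cluster of 2 were below every control. The pooled change of 0.30 ± 0.17 did not pass (adjusted p = 0.207), but with size factors it was 0.38 and passed (adjusted p = 0.03). The change was 0.63 within the clusters of 3 (adjusted p = 8.16e-05) and -0.19 within the clusters of 2 (adjusted p = 0.108), and the difference between them had an adjusted p of 3.43e-05. Exons of Becn1 overlap those of Cntd1 on the other strand by up to 1297 bases, with 1242 reads assigned to Cntd1 and 68243 to Becn1 over the 10 libraries. Pik3c3, the catalytic subunit VPS34, changed by 0.05 and Pik3r4, its regulatory subunit, by -0.37 with an adjusted p of 0.0568.

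None of the 8 genes grouped here under membrane supply to the phagophore passed the test in limma with group as the only term. None had an unadjusted p under 0.05 there, and none was called by limma voom on the recovered reads. With a term for the library cluster Wipi2 passed, at -0.38 (adjusted p = 0.0339). With a term for the replicate number Tecpr1 passed, at 0.49 (adjusted p = 0.0253). The 8 comprise the scramblase Atg9a, the lipid transfer proteins Atg2a and Atg2b, the phosphoinositide binders Wipi1, Wipi2 and Wdr45, and Vmp1 and Tecpr1. Without such terms the changes ran from -0.38 for Wipi2 to 0.49 for Tecpr1. Their changes nevertheless differed between the clusters for 7 of the 8, 87.5% beside 63.3% of all genes. Of the 8, 5 passed the test in both clusters with opposite signs, 62.5% beside 13.7% of all genes. Tecpr1, a tether between autophagosome and lysosome, showed the widest such gap, at -0.38 within the clusters of 2 and 1.08 within the clusters of 3. Atg2a changed by -0.81 and 0.21, and Wdr45 by -0.78 and 0.23. Exons of Vmp1 hold the precursor of the microRNA Mir21a on the same strand, and reads of gene and precursor were not separated here.

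The conjugation system gave 4 of the 10 rises, and none of its 10 genes fell. Atg7 activates the ubiquitin-like proteins ATG12 and ATG8, Atg3 and Atg10 hand them on, Atg5 and Atg12 form the conjugate that with Atg16l1 acts as the ligase, and the 4 Atg4 proteases cut ATG8 before and after use. Atg12 was measured at 4.96, 5.10, 5.38, 5.64 and 5.47 log2 CPM in controls and at 6.30, 6.39, 6.14, 6.20 and 6.12 with stiripentol. The groups did not overlap. The change was 0.92 ± 0.14, a fold of 1.89 (adjusted p = 0.00157), and it was 0.79 and 1.00 within the clusters. Atg3 stood at 4.64, 4.80, 4.94, 4.93 and 4.82 in controls and at 5.82, 5.57, 5.38, 5.40 and 5.39 with stiripentol. Again every stiripentol library was above every control, with a change of 0.69 ± 0.12 (fold of 1.61, adjusted p = 0.00329) and 0.82 and 0.60 within the clusters. Atg7 had 4.92, 4.90, 5.05, 4.72 and 4.46 in controls and 5.54, 5.51, 5.18, 5.20 and 5.25 with stiripentol. Here the lowest controls and the highest stiripentol libraries were those of the clusters of 2, with a change of 0.94 there and of 0.25 within the clusters of 3. The pooled change was 0.53 ± 0.14 (adjusted p = 0.0217), and without stiripentol library 2 it was 0.48 with an adjusted p of 0.0549.

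Atg5 was measured at 4.67, 4.89, 4.66, 4.99 and 4.99 log2 CPM in controls and at 5.10, 5.08, 5.32, 5.32 and 5.32 with stiripentol. The groups were separate, but by a narrow gap. The change of 0.39 ± 0.12 (adjusted p = 0.037) was 0.58 within the clusters of 3 and 0.10 within the clusters of 2 (adjusted p = 0.454). It no longer passed without control 1, 2 or 3 (adjusted p = 0.0866, 0.0663 and 0.0842) or without stiripentol library 3, 4 or 5 (adjusted p = 0.0761, 0.078 and 0.0724). The other 6 conjugation genes (Atg4a, Atg4b, Atg4c, Atg4d, Atg10 and Atg16l1) had changes of -0.12 to 0.44, none past the test. Atg4c and Atg4d passed with opposite signs in the clusters, at -0.97 and 0.44 for Atg4c and at -1.29 and 0.66 for Atg4d. Exons of Atg4d overlap those of Kri1 on the other strand by up to 792 bases, with 12112 reads assigned to Atg4d and 14160 to Kri1.

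Promoter windows of the members were searched because several conjugation genes rose together, and the motifs were chosen after these values were known. RefSeq windows of 250 bases before a transcription start (GRCm38.p6, the same build as the mm10 of the labels) were found for 36 of the 44 members, 42 windows in all. The E-box core CACGTG, the center of the element read by TFEB and TFE3, occurred in 3 member windows, 7.14%, beside 6.02% of 32851 windows of all genes. No share by gene was taken over all genes, and the genes whose rise prompted the search include those with the core. The 3 windows belong to Atg3, Atg5 and Atg7, 3 of the 36 members and 3 of the 10 changed members that had a window. They are printed below with the core in capitals, from chr16:45158579-45158828, chr10:44268089-44268338 and chr6:114670846-114671095, all on the plus strand, the last lying inside the annotated Atg7 gene before an internal start.
Atg3: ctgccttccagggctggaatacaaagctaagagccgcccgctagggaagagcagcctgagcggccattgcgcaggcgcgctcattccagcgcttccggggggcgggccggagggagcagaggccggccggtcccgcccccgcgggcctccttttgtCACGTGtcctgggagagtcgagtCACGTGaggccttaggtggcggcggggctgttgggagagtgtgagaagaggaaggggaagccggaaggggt
Atg5: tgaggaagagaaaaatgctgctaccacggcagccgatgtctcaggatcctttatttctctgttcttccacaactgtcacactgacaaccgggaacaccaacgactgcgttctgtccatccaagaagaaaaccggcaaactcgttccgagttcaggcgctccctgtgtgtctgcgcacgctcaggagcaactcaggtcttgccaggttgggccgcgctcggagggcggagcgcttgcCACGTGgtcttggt
Atg7: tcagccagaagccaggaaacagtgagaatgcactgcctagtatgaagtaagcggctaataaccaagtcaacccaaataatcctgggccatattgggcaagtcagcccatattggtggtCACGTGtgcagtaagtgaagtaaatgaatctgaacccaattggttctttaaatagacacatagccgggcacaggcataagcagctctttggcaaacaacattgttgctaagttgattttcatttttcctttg
Atg3 holds the core at 2 places and the others at 1. The full CLEAR element, the core with GT before it and AC after it, was found in none of the 42 windows and in 0.24% of all. TGATGNAA, a form of the site of ATF4, and TGTTTAC, a forkhead site, were also found in none, beside 3.45% and 3.17% of all windows. The antioxidant element TGACNNNGC was in 16.7% of the member windows and 10.2% of all. Its 7 member windows belong to 5 genes, several of the windows to Vmp1, which did not pass the test. Of the 10 changed members that had a window, 2 held this element. Both strands were searched, and the core lies within the CLEAR element, so that these 2 searches overlap.

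The ATG8 family went in both directions, with 1 rise and 1 fall among 5 genes. Gabarap (GRCm38 chr11:69991370-69994949), which acts late in phagophore closure, had 7.74, 7.75, 8.14, 8.92 and 8.82 log2 CPM in controls and 9.65, 9.54, 8.88, 8.88 and 8.79 with stiripentol. The stiripentol libraries of the cluster of 3 reached the level of the controls of the cluster of 2, so that the groups overlapped, and within each cluster they did not. The change was 0.87 ± 0.28, a fold of 1.83 (adjusted p = 0.0399), with 0.72 and 0.97 within the clusters. It no longer passed without control 1, 2 or 3 (adjusted p = 0.0925, 0.0922 and 0.0838) or without stiripentol library 1 or 2 (adjusted p = 0.0872 and 0.0934). Map1lc3a, which encodes LC3A, had 5.33, 5.29, 5.41, 5.35 and 5.10 in controls and 5.00, 5.03, 4.89, 4.98 and 4.85 with stiripentol. All stiripentol libraries were below all controls, by a change of -0.35 ± 0.11 (adjusted p = 0.0335) that was -0.21 within the clusters of 2 (adjusted p = 0.157) and -0.44 within the clusters of 3. When 1 library was left out, the call held without control 5 or stiripentol library 1, and leaving out each of the other 8 gave an adjusted p of 0.0525 to 0.077, and the scalings gave 0.15 and 0.176.

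Map1lc3b, the LC3B gene whose protein is the usual marker of autophagosomes, had 7.60, 7.73, 7.74, 8.46 and 8.26 log2 CPM in controls and 8.06, 8.14, 7.94, 7.93 and 7.93 with stiripentol. The spread of the controls enclosed all stiripentol libraries. The pooled change was 0.04 ± 0.17 (adjusted p = 0.858), and it was -0.26 within the clusters of 2 and 0.25 within the clusters of 3, both past the test. A near-identical copy, Gm6055, was assigned 1479 reads beside 142531 for Map1lc3b. Gabarapl1 changed by 0.32 and Gabarapl2 by -0.30, neither past the test, although all stiripentol libraries were below all controls for Gabarapl2.

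**Figure D2:**
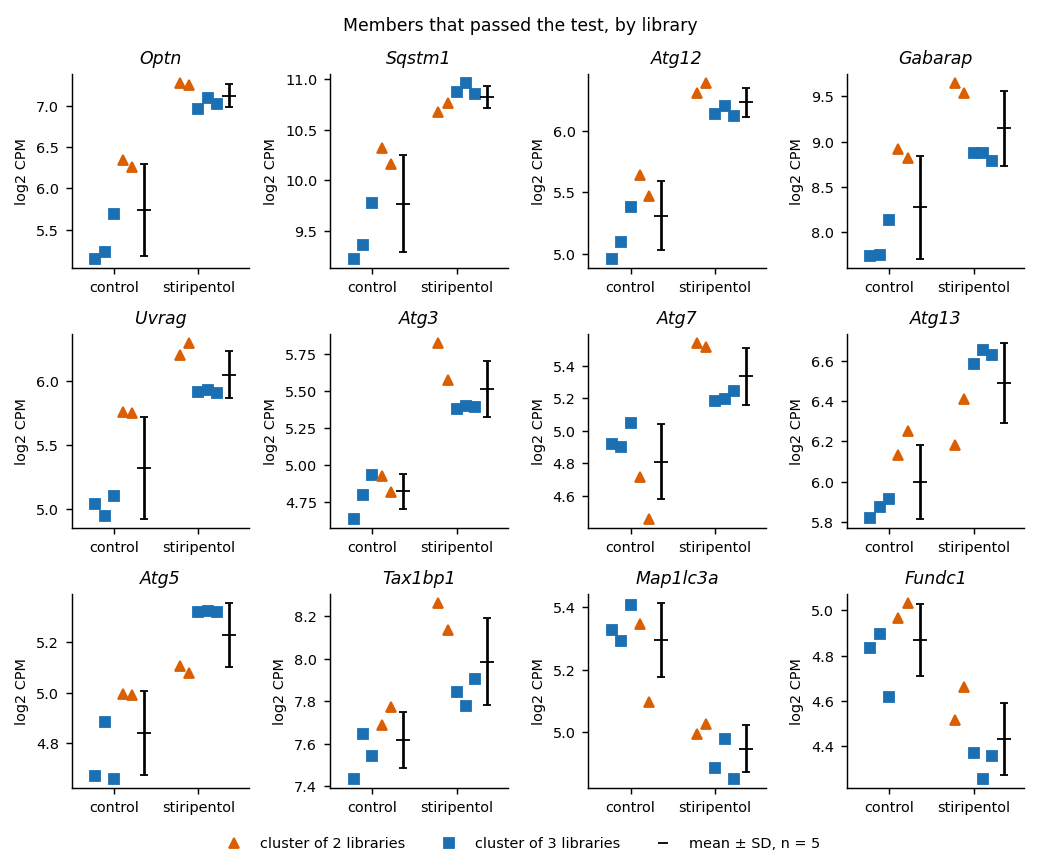
Level in log2 CPM (y axis) of the 12 members that passed the test, in each control and stiripentol library (x axis). Triangles mark libraries of the clusters of 2, squares those of the clusters of 3, and the bars give the mean and SD of 5 libraries. Stiripentol libraries lie above all controls in 8 of the 10 panels of genes that rose, and Atg13 and Gabarap are the exceptions.

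The cargo receptors Optn and Sqstm1 had the largest changes of the 43 members tested, and 3 of the 5 receptor genes rose and none fell. Optn (GRCm38 chr2:5020521-5064399), which encodes optineurin, a receptor for ubiquitin-marked mitochondria and bacteria, was measured at 5.15, 5.23, 5.69, 6.34 and 6.25 log2 CPM in controls and at 7.27, 7.25, 6.95, 7.09 and 7.02 with stiripentol. All stiripentol libraries were above all controls and close to each other, whereas the controls differed by cluster. The change was 1.38 ± 0.23, a fold of 2.61 (adjusted p = 0.00234), with 0.96 within the clusters of 2 and 1.66 within the clusters of 3. Sqstm1, which encodes p62, the receptor that gathers ubiquitinated proteins, had 9.22, 9.36, 9.78, 10.32 and 10.16 in controls and 10.68, 10.76, 10.88, 10.96 and 10.85 with stiripentol. The groups did not overlap. The change was 1.06 ± 0.20, a fold of 2.08 (adjusted p = 0.00448), with 0.48 and 1.44 within the clusters, and the difference between these had an adjusted p of 0.00121. Sqstm1 (GRCm38 chr11:50200152-50210820) shares up to 580 exonic bases with Mrnip on the other strand, with 770258 and 3042 reads assigned.

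Tax1bp1, a receptor that works beside p62, had 7.43, 7.65, 7.54, 7.69 and 7.77 log2 CPM in controls and 8.26, 8.13, 7.84, 7.78 and 7.91 with stiripentol. Control 5 and stiripentol library 4 almost touched, at 7.77 and 7.78. The change was 0.37 ± 0.12 (adjusted p = 0.0388), with 0.47 and 0.30 within the clusters, and with size factors it was 0.44 with an adjusted p of 0.0799. The call was lost without control 1, 2 or 3 (adjusted p = 0.091, 0.0692 and 0.082) or without stiripentol library 1, 2 or 5 (adjusted p = 0.0759, 0.0923 and 0.0522). Nbr1, another ubiquitin-binding receptor, changed by 0.36 with an adjusted p of 0.0564, and Calcoco1 by -0.04 with an adjusted p of 0.913.

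Of the 5 genes tested in the mitophagy group, none rose and 1 fell. Optn, which also acts on mitochondria and rose, was counted with the cargo receptors. Fundc1, a receptor of the outer mitochondrial membrane linked to hypoxia, had 4.83, 4.89, 4.61, 4.96 and 5.03 log2 CPM in controls and 4.51, 4.66, 4.37, 4.25 and 4.36 with stiripentol. Only control 3 and stiripentol library 2 crossed. The change was -0.44 ± 0.13, and it was -0.41 and -0.45 within the clusters, both past the test. Its adjusted p of 0.0314 became 0.151 with quantile normalization and 0.128 with size factors, where the change was -0.36 in both. Without control 3 or stiripentol library 1 or 2 the call held, and leaving out each of the other 7 libraries gave an adjusted p of 0.0575 to 0.0699.

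Pink1, the kinase that accumulates on damaged mitochondria, had 5.11, 5.27, 5.59, 6.80 and 6.63 log2 CPM in controls and 6.11, 6.22, 5.39, 5.49 and 5.36 with stiripentol. The clusters differed more than the groups. The pooled change was -0.17 ± 0.35 (adjusted p = 0.742), and it was -0.55 within the clusters of 2 (adjusted p = 0.000949) and 0.09 within the clusters of 3 (adjusted p = 0.524). Park2, its partner, was covered by 0 to 7 reads per library, too few to compare. Its listed values were -3.62, -3.52, -3.90, -3.11 and -3.61 in controls and -4.74, -4.19, -3.80, -2.70 and -2.77 with stiripentol. Bnip3l, which encodes the receptor NIX, had 7.30, 7.36, 7.04, 8.33 and 8.32 in controls and 7.85, 7.71, 7.73, 7.65 and 7.61 with stiripentol. The stiripentol libraries lay together between the 2 clusters of controls. The pooled change was 0.04 ± 0.25 (adjusted p = 0.915), with -0.55 within the clusters of 2 and 0.43 within the clusters of 3, both past the test, and the difference between these had an adjusted p of 9.93e-05. Bcl2l13 and Phb2, receptors of the outer and inner membrane, changed by 0.18 and 0.05 and did not pass in the fit of 10 libraries.

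**Figure D3:**
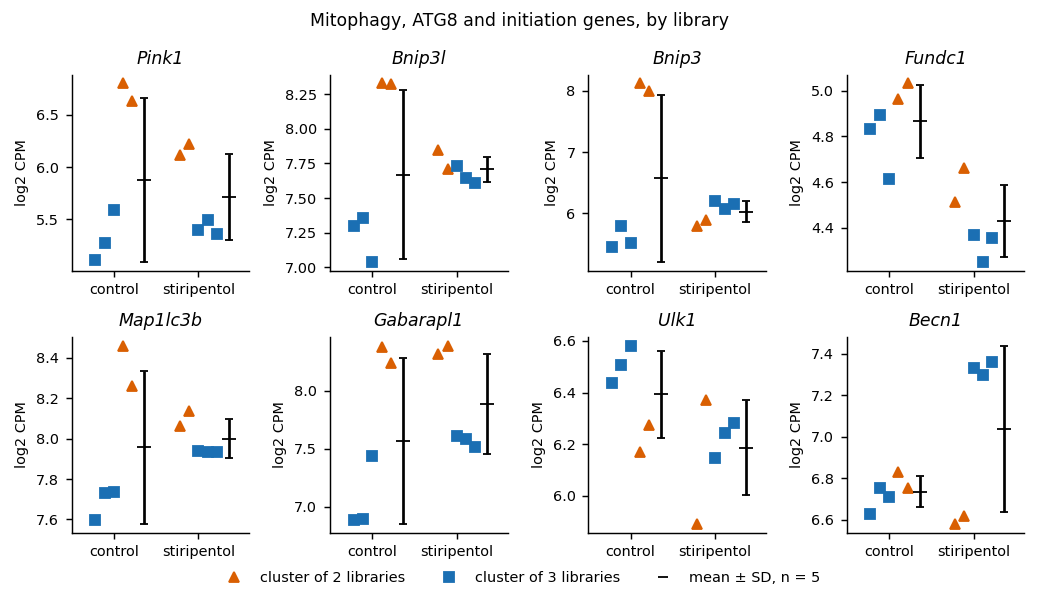
Level in log2 CPM (y axis) of 7 members and of Bnip3 in each control and stiripentol library (x axis). Triangles and squares mark the clusters of 2 and of 3 libraries, and bars give the mean and SD of 5. The controls of the cluster of 2 lie above those of the cluster of 3 for Pink1, Bnip3l, Bnip3, Map1lc3b and Gabarapl1, and for Becn1 the stiripentol libraries of the cluster of 3 lie above those of the cluster of 2.

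Because the clusters split both groups, each was also fitted alone. Within the clusters of 2, 13 of the 43 members were higher with stiripentol and 16 lower, 30.2% and 37.2%, beside 25.7% and 46.5% of all genes. Within the clusters of 3, 24 were higher and 6 lower, 55.8% and 14.0%, beside 37.7% and 27%. The median member changed by -0.09 in the former, where all genes had a median of -0.25, and by 0.25 in the latter, where all genes had 0.08. The change differed between clusters for 28 members, 65.1% beside 63.3% of all genes, and for 17 of these the signs were opposite, 39.5% beside 31.7%. The fits of the clusters share no library.

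On the match of clusters by size, all 10 members that rose had a change above 0 in both clusters. They were picked by the fit of the same 10 libraries, so a rise in both clusters was likely beforehand and is no separate evidence. Of the 10 members, 8 passed in both clusters, Atg13 and Atg5 being the exceptions. With Atg14 this made 9 members called higher in both clusters, 20.9% beside 15.3% of all genes. Those called lower in both were Pik3r4, Gabarapl2 and Fundc1, 6.98% beside 18.8%. Another 11 members, 25.6% beside 13.7% of all genes, passed in both with opposite signs. They were Ulk2, Pik3c3, Atg2a, Atg2b, Wdr45, Tecpr1, Atg4c, Atg4d, Map1lc3b and Bnip3l, lower in the clusters of 2 and higher in the clusters of 3, and Vmp1, which went the other way. Control libraries already differed by cluster. In controls, 5 members were over 1 log2 unit higher in the cluster of 2 than in the cluster of 3 (Pink1 by 1.39, Gabarapl1 by 1.23, Atg14 by 1.11, Bnip3l by 1.09 and Calcoco1 by 1.02) and 0 were as much lower, beside 8.26% and 7.55% of all genes. With stiripentol, 1 member (Atg10) was as much higher and 0 were as much lower, beside 2.52% and 22.85% of all genes. The median member difference, cluster of 2 minus cluster of 3, was 0.25 in controls and 0.05 with stiripentol. What separates the clusters is not given in the labels. In controls the clusters hold the same libraries as the normalization sets, so that cluster and set cannot be separated there.

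**Figure D4:**
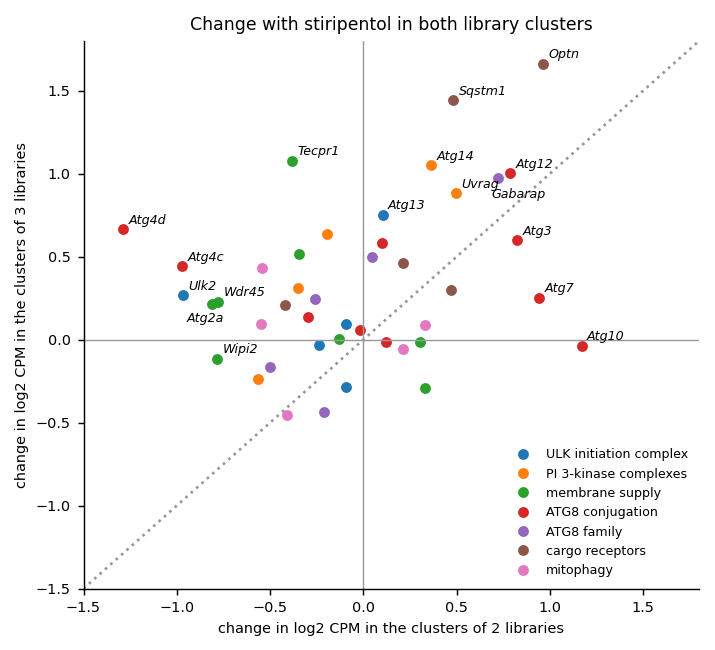
Change in log2 CPM (stiripentol minus control) of the 43 members within the clusters of 2 libraries (x axis) and of 3 libraries (y axis), colored by role, with a dotted line where both are equal. Optn, Sqstm1, Atg12, Gabarap, Atg3, Atg7 and Uvrag lie above 0 on both axes, and Atg4d, Atg4c, Ulk2, Atg2a, Wdr45 and Tecpr1 lie in the upper left, lower in one comparison and higher in the other.

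The table held 62 autophagy genes outside the list. Of the 56 tested, 14 rose and 5 fell, 25% and 8.93%, beside 13.6% and 14.1% of all genes, with a median change of 0.15 beside -0.06. Before the lysosome, Rubcn, Sh3glb1 and Wdr45b rose, and Trp53inp2 and Atg9b fell. Among genes of fusion with the lysosome, Vps11 and Vps39 of the tethering complexes rose. Receptors for other cargo rose in 4 cases, Tex264 (endoplasmic reticulum), Tollip (aggregates), Stbd1 (glycogen) and Nufip1 (ribosomes), and the scaffold Wdfy3 fell. Around mitochondria, the deubiquitinases Usp30, Usp15 and Usp8 and the transport adaptor Rhot1 rose, and its relative Rhot2 and the receptor Fkbp8 fell. Of the regulators, Tfe3 alone passed the test, upward. When 1 library was left out, 10 of these 19 genes passed in every fit and 9 did not. Tfe3 did not pass without control 1, 2, 3 or 4 or stiripentol library 1, 2 or 4 (adjusted p = 0.0547 to 0.0757), nor with size factors (adjusted p = 0.0666). Vps39 did not pass without control 1, 2 or 3 or stiripentol library 2, 3, 4 or 5 (adjusted p = 0.0625 to 0.103), and its change was -0.055 within the clusters of 2 (adjusted p = 0.66) and 1.00 within the clusters of 3. Sh3glb1 was lost without control 1, 2, 4 or 5 or stiripentol library 1 or 2 (adjusted p = 0.057 to 0.0984), and Wdr45b without control 2, 3 or 5 or stiripentol library 1, 2 or 3 (adjusted p = 0.0524 to 0.0733), and with size factors both were lost (adjusted p = 0.0853 and 0.0671). Usp8 was lost without control 1 or 2 or stiripentol library 3, 4 or 5 (adjusted p = 0.0506 to 0.0587). Fkbp8 was lost without control 1 or stiripentol library 2 (adjusted p = 0.0505 and 0.0537) and with size factors (0.0539), and Rhot2 without control 2 or stiripentol library 4 (adjusted p = 0.0561 and 0.0506), with quantile normalization (0.0877) and with size factors (0.161). In the libraries of 1 normalization set, 4 of these 19 passed (Tex264, Usp15, Rhot1 and Atg9b), and among the others Rubcn, Vps11, Tollip and Stbd1 had changes of 0.36, 0.34, 0.39 and 0.75 (adjusted p = 0.151, 0.172, 0.0955 and 0.0855).

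The largest rise in this second list was that of Stbd1, from 4.54, 4.84, 5.54, 6.30 and 6.14 log2 CPM in controls to 7.42, 7.34, 6.73, 6.71 and 6.64 with stiripentol, by 1.49 ± 0.34 (adjusted p = 0.0101). Nufip1 went from 4.74, 4.65, 4.69, 4.91 and 4.90 to 6.31, 6.15, 5.54, 5.52 and 5.48, by 1.02 ± 0.18 (adjusted p = 0.00294). Usp15, which opposes parkin, went from 5.92, 5.97, 5.94, 5.85 and 5.98 to 6.94, 6.74, 6.75, 6.68 and 6.73, by 0.83 ± 0.09 (adjusted p = 0.000217). In each of these, picked by the fit of the same libraries, the groups were apart and both clusters moved the same way. Atg9b, the relative of Atg9a, fell from 3.37, 3.47, 2.14, 3.45 and 3.83 to 1.40, 1.05, 1.34, 1.15 and 1.54, by a change of -1.96 ± 0.30 (adjusted p = 0.00146). Wdfy3 fell from 7.17, 6.93, 7.32, 7.07 and 7.24 to 5.32, 5.62, 6.69, 6.60 and 6.72, by a change of -0.96 ± 0.27 (adjusted p = 0.026). For both genes the groups were again apart, although Wdfy3 did not pass without control 1 or 3 or stiripentol library 2 (adjusted p = 0.0536, 0.0596 and 0.0617). Trp53inp2, which recruits ATG8 proteins, had 6.48, 6.67, 7.09, 6.95 and 7.08 in controls and 5.68, 5.76, 6.40, 6.44 and 6.54 with stiripentol, a change of -0.69 ± 0.20 (adjusted p = 0.0294). It was -1.30 within the clusters of 2 and -0.28 within the clusters of 3 (adjusted p = 0.117), and it did not pass without control 3, 4 or 5 (adjusted p = 0.0705, 0.0532 and 0.0593) or without stiripentol library 1 or 2 (adjusted p = 0.0596 and 0.0701).

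Bnip3, the mitophagy receptor closest to NIX, had 5.45, 5.79, 5.52, 8.12 and 7.99 log2 CPM in controls and 5.80, 5.90, 6.21, 6.08 and 6.15 with stiripentol. As for Bnip3l, the controls of the cluster of 2 stood apart from all other libraries. The pooled change was -0.55 ± 0.53 (adjusted p = 0.455), with -2.21 within the clusters of 2 (adjusted p = 4.48e-08) and 0.56 within the clusters of 3 (adjusted p = 0.00163). Tfeb, the regulator of lysosome and autophagy genes, had 5.30, 5.10, 5.16, 5.13 and 5.13 in controls and 5.20, 5.56, 4.94, 5.09 and 4.90 with stiripentol. Its change of -0.03 ± 0.14 did not pass (adjusted p = 0.894) and became 0.02 with quantile normalization and 0.05 with size factors.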

How the data were processed

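For mSCLC-2405 cells the authors deposited 1 table with log2 CPM (log2 of reads scaled to library size) in 26335 rows and 10 libraries, 5 per group. A prior in proportion to library size, 0.837 to 2.38 reads, had been added before the logarithm. The methods name GENAVi for the conversion to CPM and the labels name mm10, and the aligner and annotation are not given in the sources used here. The value of a gene without reads was -4.82 in controls 1 to 3 and -4.74 in the other 7 libraries. Removing the prior gave whole reads within 0.05 for 100% of the values. Reads without molecular identifiers are not independent molecules. The deposited columns of group means, p-values, q-values and ratios hold the authors' own comparisons and were not used, and no sample column was left unmapped.

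Groups were compared with limma 3.58.1 in R 4.3.3 (lmFit, eBayes with trend, no covariate) on the 12306 genes whose log2 CPM averaged above 0, with Benjamini-Hochberg adjustment. Clusters of libraries were found by average linkage on Pearson correlation over those genes. Python 3.11.15, pandas 2.3.3, numpy 2.4.6, scipy 1.17.1 and matplotlib 3.10.9 served for tables and plots. Positions and overlaps come from GRCm38 with its GENCODE annotation, and near-identical copies were found with blastn 2.17.0+. The steps were tested on simulated data. Symbols of 14 rows had been turned into numbers, and none was needed for a member.

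The members and lists were chosen with earlier results of these data known. Values in all libraries are given for members past the threshold and for Sqstm1, Map1lc3b, Ulk1, Becn1, Atg5, Pink1, Park2 and Bnip3l, other members by range and counts. Of the other autophagy genes those past the threshold are named, with values for the 3 largest changes in each direction and for Bnip3 and Tfeb. Changes of Ulk2, Atg14, Tecpr1 and other members outside that rule were chosen after their values were seen. Alternatives were a replicate block, a cluster term, omission of each library in turn, each cluster alone, cluster means, quantile normalization, size factors, the libraries of 1 normalization set, other filters, pseudocounts of 0.1 and 1 CPM and limma voom. Further settings of the cluster fits (quantile normalization, leaving out each library) were added after the data were seen. The result of 1 marker gene is not reported here.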

Additional observations from a re-analysis of the deposited data

How the results depend on the processing

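Across the alternatives, 671 of 874 values of 38 named genes kept direction and side of the threshold, 168 kept direction but lost the call, 9 gained one and 26 changed sign. Counts of members higher and lower (10 and 2) were 13 and 16 in the clusters of 2 alone, 24 and 6 in the clusters of 3 alone, 0 and 0 with cluster means, and 6 and 5 in the libraries of 1 normalization set. They were 13 and 5 with a cluster term, 10 and 1 with either quantile normalization or size factors, and 7 to 12 and 0 to 2 on leaving out 1 library. For the other autophagy genes (14 and 5) they were, in the same order, 17 and 22, 30 and 10, 0 and 0, and 4 and 3, then 22 and 12 with the cluster term, and 9 to 13 and 2 to 6 on leaving out 1 library. The median member change was 0.25 in the clusters of 3, against an SD of 0.19 over libraries. The cause of these shifts was not tested.

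Same-numbered deviations correlated at -0.152 on average (-0.24 to 0.0612), and 0 stiripentol libraries correlated best with their own number. Controls 1, 2, 4 and 5 lie in a cluster of other size than the stiripentol library of the same number. The clusters therefore weigh on these correlations, which cannot decide whether replicate numbers pair the samples. With the replicate block 7 members were higher and 0 lower (8.29% and 8.63% of all genes), with Tecpr1 (adjusted p = 0.0253) beside 6 of the 10 that rose (not Uvrag, Atg5, Gabarap and Tax1bp1), and 5 and 3 other autophagy genes.

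Signs changed only for small or cluster-dependent changes. In the clusters of 2 alone the changes were -0.19 for Becn1, -0.26 for Map1lc3b, -0.55 for Bnip3l, -0.055 for Vps39 and 0.25 for Tfeb, and in the clusters of 3 alone 0.091 for Pink1 and 0.56 for Bnip3. Cluster means gave -0.0067 for Map1lc3b, -0.058 for Bnip3l and 0.018 for Tfeb, and the libraries of 1 normalization set gave -0.36, -0.62 and 0.0080. Tfeb was 0.024 with quantile normalization and 0.049 with size factors. On leaving out 1 library the change ranged from -0.046 to 0.17 for Map1lc3b and -0.12 to 0.20 for Bnip3l (below 0 without control 1, 2 or 3), from -0.36 to 0.065 for Pink1 (above 0 without control 4 or 5) and from -0.13 to 0.031 for Tfeb (above 0 without control 1 or stiripentol 3 or 5). Depth limits Park2 alone among the members. In 86 sets of 5 values no single library stood apart from its group by a Dixon ratio above 0.71. That ratio takes the gap between an end value and its nearest neighbor. A cluster of 2 libraries lying apart from the cluster of 3 is therefore not seen by it.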
